A study of Homo sapiens with 3 samples.

Results

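Complex I, the NADH dehydrogenase of the mitochondrial respiratory chain, passes electrons from NADH to ubiquinone and pumps protons across the inner membrane. Its core subunits carry the flavin and the iron-sulfur clusters, its accessory subunits surround and stabilise that core, and assembly factors help to build the enzyme without remaining in it. Most of its parts are encoded in the nucleus, so their genes have promoters at which a nuclear DNA-binding protein such as ZBTB11 can be mapped. The genes described here are the protein-coding genes whose GENCODE symbol starts with NDUF, together with ACAD9, ECSIT, TMEM126B, TIMMDC1, FOXRED1 and NUBPL. They number 54 of the 20033 protein-coding genes of the annotation, of which 37 encode subunits, 7 of them core and 30 accessory, 14 encode assembly factors, and 3 carry an NDUF symbol without encoding a complex I subunit. The last are NDUFA4, now counted with cytochrome c oxidase, its relative NDUFA4L2, and the read-through gene NDUFC2-KCTD14.

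The study asked where ZBTB11, a zinc finger protein that binds the oncoprotein SET, sits on chromatin in lung cancer cells. NCI-H1299, an established p53-null human lung cancer line, was used untreated and with the genotype WT. In all, 3 libraries were made, for ZBTB11, for normal IgG as the negative control, and for Input, which was not analysed here. Both immunoprecipitated libraries come as lists of called peaks, with 1 library each, so no value below has a replicate and no test between conditions could be made. Peak lists hold no expression, so the identity of the line was not checked.

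For each gene the strongest ZBTB11 peak, the one with the smallest p-value, was taken among those within 3 kb of any of its annotated transcript starts. The strength of a peak is given as the fragments that cover its summit, whose number was solved from the deposited fold enrichment and p-value. Whether the background behind fold and p came from Input or from the immunoprecipitated library itself is not certain. Intervals on fragments are exact Poisson 95% intervals and those on shares of genes are Wilson 95% intervals, and neither covers more than counting error. On the assembled chromosomes, 346891 ZBTB11 peaks were listed, with a median of 5 fragments and 29 fragments at the peak of rank 5000. Since peaks were listed from a p-value of 0.05, a listed peak by itself said little. It was found for 53 of the 54 genes, against 87.7% of all protein-coding genes.

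Sequences close to the summits are shown first, to let the strongest peaks of these genes be compared base by base. The consensus is C[C/A]GGAAG, that is CCGGAAG or CAGGAAG on either strand, which the study had found in the strongest of these same ZBTB11 peaks, so its presence at strong peaks is not independent evidence. The lines below give 30 bases of hg38 around a consensus match within 50 bp of the summit, with the match in capitals, for 4 genes with strong peaks and for NDUFS5, which has the consensus at a moderate peak. NDUFS3 lies at chr11:47578980-47579009 on the plus strand, TIMMDC1 at chr3:119498414-119498443 on the minus strand, NDUFA13 at chr19:19516204-19516233 on the plus strand, NDUFS1 at chr2:206159584-206159613 on the plus strand and NDUFS5 at chr1:39026775-39026804 on the minus strand.
NDUFS3: tccacgtccgcCCGGAAGaagatctgctgc
TIMMDC1: ctgagtgcacccCCGGAAGtgagttggctg
NDUFA13: tccgcccgggaCCGGAAGtgtgggatactg
NDUFS1: ccgcagttccgCCGGAAGtggccccagcct
NDUFS5: ccggagttacagCCGGAAGtgctggctatg

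Several of the strongest peaks of these genes had no consensus match but held its inner 5 bases, CGGAA, a sequence chosen for display after the data were seen. CGGAA is contained in CCGGAAG, so every CCGGAAG match is also a CGGAA match. The lines below show 1 match per gene in capitals, for the 4 complex I genes with the most fragments among those without the consensus. The NDUFS7 line holds another CGGAA in lower case, within ccggaac, which differs from CCGGAAG at 1 position. NDUFS7 lies at chr19:1383818-1383847, NDUFC2 at chr11:78079926-78079955 and NDUFAF1 at chr15:41402504-41402533, each on the minus strand, and NDUFB3 lies at chr2:201071931-201071960 on the plus strand. The 7 bases that start 1 base before the capitals and end 1 base after them differed from CCGGAAG at 1 position in NDUFC2 and NDUFAF1 and at 2 positions in NDUFS7 and NDUFB3.
NDUFS7: ctcggagcgcatgCGGAAaccggaacctgg
NDUFC2: aaacttagtagccCGGAActtcgcgtgccg
NDUFAF1: ccttgtttggcatCGGAAgggaaaagcaga
NDUFB3: ctaacccagtatCGGAAcgttaagcggctt

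ZBTB11 peaks at these genes ran from among the strongest in the genome to barely above background. A peak of p 1e-05 or less was found for 37 of the 54 genes (68.5%, interval 55.3 to 79.3), against 46.9% of all protein-coding genes. At p 1e-10 or less there were 31 genes (57.4%), against 31.8%. The strongest peak was among the 5000 of smallest p in the list for 22 genes (40.7%), against 23.8%, and among the 1000 of smallest p for 10 genes (18.5%), against 6.01%. The 10 include NDUFC2 and the read-through gene NDUFC2-KCTD14, which have the same peak. FOXRED1 and NDUFV3 are also among the 10, with summits nearer to another gene's start. The median number of fragments was 19.5 over the 54 genes and 9 over all protein-coding genes, with a gene without a peak counted as 0. When each peak was given to the gene of the nearest protein-coding start, an alternative chosen after seeing the data, the medians were 12.5 and 7. The strongest peak was then among the 5000 for 17 genes, against 19.1% of all protein-coding genes. No such count is given for the 1000. The middle of the distribution was wide, from a lower quartile of 9.25 to an upper quartile of 95.5 fragments, and 13 genes had at least 100 fragments while 16 had 10 or fewer or no peak.

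**Figure D1:**
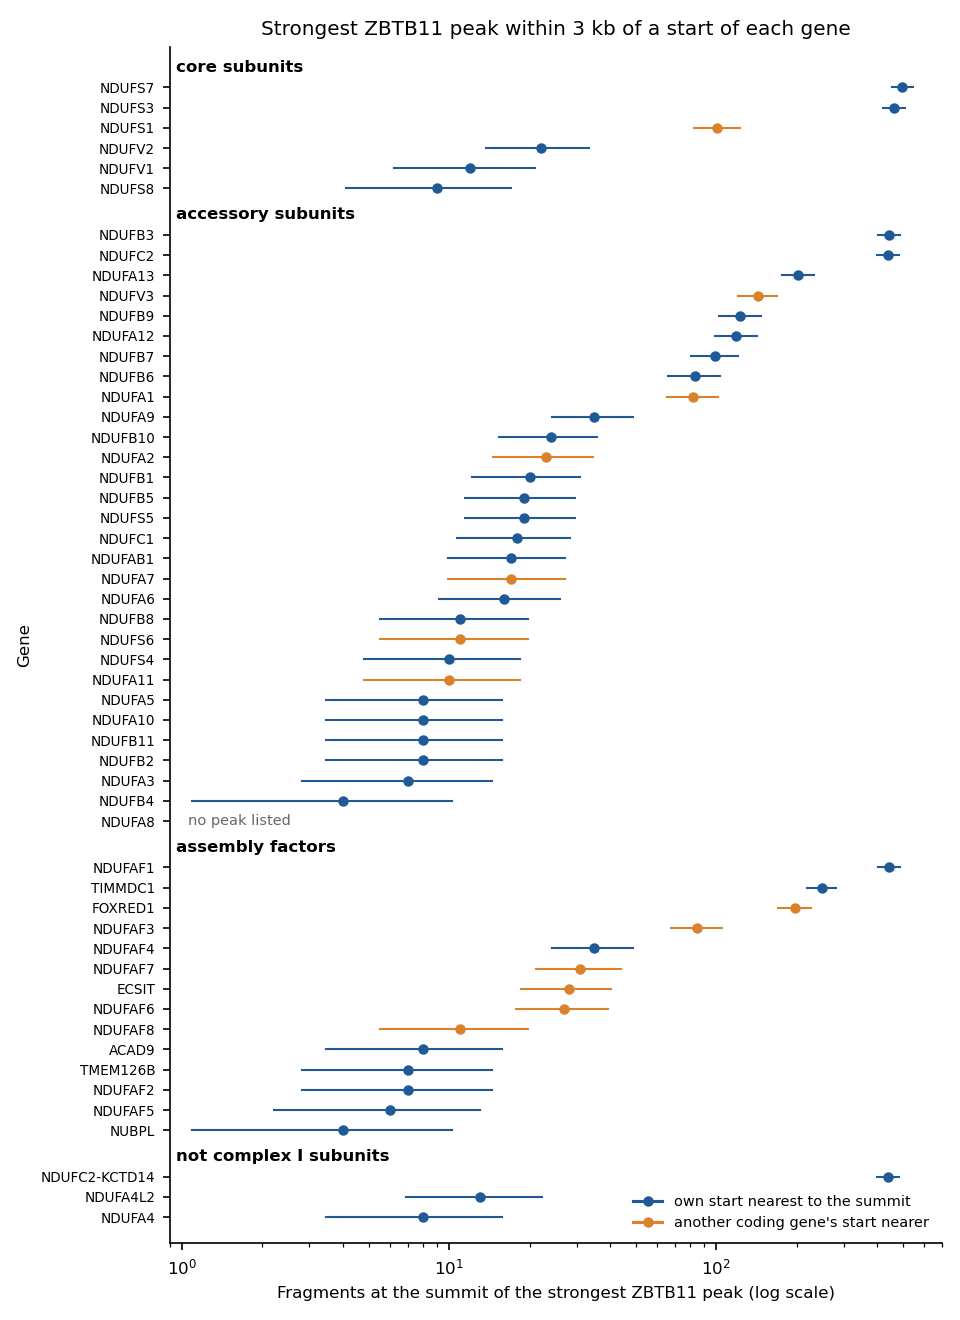
Fragments at the summit of the strongest ZBTB11 peak within 3 kb of a start of each gene (x axis, log scale), by class of gene, for 53 of the 54 genes, with exact Poisson 95% intervals as lines. Blue marks summits nearest to the gene's own start and orange those nearer to another protein-coding gene's start, and each class runs from over 400 fragments down to 13 or fewer.

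The 7 core subunits covered almost the whole range. NDUFS7, an iron-sulfur subunit next to the ubiquinone site, had 498 fragments (455 to 544) at chr19:1383379-1384290 over a background of 25.7, an 18.7-fold enrichment with a −log10 p of 439, at rank 30. NDUFS3, a subunit of the same module, had 464 fragments (423 to 508) at chr11:47578543-47579454 over 22.99, a 19.4-fold enrichment with a −log10 p of 417, at rank 117. NDUFS1, which carries iron-sulfur clusters of the NADH-oxidising module, had 101 fragments (82.3 to 123) over 5.01, a 17.0-fold enrichment with a −log10 p of 92.8, at rank 1271. The NDUFS1 summit was nearer to the start of EEF1B2. The intervals of NDUFS7 and NDUFS3 overlapped, and both lay far above that of NDUFS1.

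Other core genes were lower. NDUFV2, an iron-sulfur subunit, had 22 fragments, NDUFV1, which binds NADH and the flavin, had 12, and NDUFS8, another iron-sulfur subunit, had 9. NDUFS8 was the only core gene above p 1e-05, and its interval of 4.12 to 17.1 overlapped that of NDUFV1, 6.20 to 20.96.

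Among the 30 accessory subunits, 21 had a peak of p 1e-05 or less (70.0%, interval 52.1 to 83.3), against 46.9% of all protein-coding genes. For 10 it was among the 5000 (33.3%, interval 19.2 to 51.2), an interval that held the 23.8% of all protein-coding genes. The medians were 18.5 and 9 fragments. NDUFB3, of the membrane arm, had 443 fragments (403 to 486) at chr2:201071511-201072369 over 21.8, a 19.5-fold enrichment with a −log10 p of 400 at rank 189. NDUFC2, also of the membrane arm, had 440 fragments (399.8 to 483) at chr11:78079465-78080308 over 19.6, a 21.5-fold enrichment with a −log10 p of 415 at rank 125. The read-through gene NDUFC2-KCTD14 starts at the same promoter and has the same peak, so these are 1 observation. The fragments of NDUFB3 and NDUFC2 differed by less than their counting error.

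A second tier of accessory genes held 82 to 203 fragments. NDUFA13, also known as GRIM-19, had 203 (176 to 233) over 11.5, with a fold of 16.4, a −log10 p of 173 and rank 693. NDUFV3, a part of the NADH-oxidising module, had 143 (121 to 168) over 7.04, with a fold of 17.9, a −log10 p of 131 and rank 915. That summit was nearer to the start of WDR4, and the strongest peak nearest to an NDUFV3 start had 34 fragments. NDUFB9, of the membrane arm, had 123 (102 to 147) over 7.71, with a fold of 14.2, a −log10 p of 100 and rank 1173.

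NDUFA12, of the matrix arm, had 119 fragments (98.6 to 142) over 5.55, with a fold of 18.3, a −log10 p of 112 and rank 1068. NDUFB7 followed with 99 fragments, NDUFB6 with 83 and NDUFA1 with 82. The NDUFA1 summit was nearer to the start of RNF113A, and no listed peak was nearest to an NDUFA1 start. The other accessory genes of p 1e-05 or less had between 10 and 35 fragments, from NDUFS4 to NDUFA9, and included NDUFAB1, the mitochondrial acyl carrier protein, with 17. By symbol, 8 of 13 NDUFA and 8 of 11 NDUFB accessory genes had a peak of p 1e-05 or less, with medians of 17 and 20 fragments. The intervals of these shares, 35.5 to 82.3% and 43.4 to 90.3%, both held the 46.9% of all protein-coding genes.

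At the low end, NDUFA10, NDUFA5, NDUFB11 and NDUFB2 had 8 fragments each and NDUFA3 had 7. NDUFB4 had 4, at a summit 2728 bp from its nearest start and with a q-value of 1. That summit lay 7342 bp from the canonical transcript start. NDUFA8 was the only one of the 54 genes with no listed peak within 3 kb. The pair on either side of p 1e-05 was NDUFA4L2, with 13 fragments over 3.23, a fold of 3.31, a −log10 p of 5.12 and rank 14451, and NDUFS6, with 11 fragments over 2.45, a fold of 3.48, a −log10 p of 4.98 and rank 14809. Their intervals, 6.92 to 22.2 and 5.49 to 19.7 fragments, overlapped over most of their length.

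By strongest peak within 3 kb, the 14 assembly factors fell into a strong and a weak set, with nothing between 11 and 27 fragments. A peak of p 1e-05 or less was found for 8 of them (57.1%, interval 32.6 to 78.6), an interval that held the 46.9% of all protein-coding genes. Among these 8, FOXRED1, NDUFAF3, NDUFAF6, NDUFAF7 and ECSIT had a summit nearer to another gene's start. Their strongest peaks nearest to an own start had 5, 76, 24, 7 and 5 fragments, so the sets depend on how peaks are assigned. Those of FOXRED1, NDUFAF6 and NDUFAF7 lay over 3 kb from the canonical transcript start. NDUFAF1, a factor of the membrane arm, had 444 fragments (404 to 487) at chr15:41402110-41402960 over 20.5, a fold of 20.7, a −log10 p of 412 and rank 139. TIMMDC1, a membrane protein that takes part in the same step, had 249 (219 to 282) over 11.3, a fold of 20.3, a −log10 p of 234 and rank 521. FOXRED1, a flavin-dependent oxidoreductase, had 197 (170 to 227) over 12.6, a fold of 14.6, a −log10 p of 158 and rank 764.

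NDUFAF3 had 85 fragments, its partner NDUFAF4 had 35, the methyltransferase NDUFAF7 had 31, ECSIT had 28 and NDUFAF6 had 27. NDUFAF8 had 11, ACAD9 had 8, TMEM126B and NDUFAF2 had 7 each and NDUFAF5 had 6. NUBPL, which delivers iron-sulfur clusters, had 4 at a summit 2004 bp from its nearest start. That summit lay 241457 bp from the canonical transcript start, that of NDUFAF2 105701 bp and that of NDUFAF5 18228 bp. The peaks of NDUFAF6, NDUFAF3 and ECSIT also lay over 3 kb from theirs. Within 3 kb of the canonical start, the strongest listed peak had 6 fragments at NDUFAF2, 13 at NDUFAF6 and 8 at NDUFAF5. NUBPL had no listed peak there. NDUFAF1, ECSIT, ACAD9 and TMEM126B encode proteins that work in 1 assembly complex, and their peaks had 444, 28, 8 and 7 fragments. The ECSIT peak of 28 lay nearer to another gene's start, and the one nearest to an ECSIT start had 5. Genes whose proteins act together thus had peaks of very different strength, as in the plot of fragments by class.

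The share of subunits minus that of assembly factors had an interval clear of 0 only at the weakest threshold, a q-value of 0.05. That threshold was added to this comparison after the data were seen, and genes of 1 library are not replicates. A peak with a q-value of 0.05 or less was found for 35 of 37 subunits (94.6%) and 10 of 14 assembly factors (71.4%), against 55.3% of all protein-coding genes, a difference of 23.2 percentage points with a Newcombe 95% interval of 2.30 to 49.5. A peak of p 1e-05 or less was found for 27 of 37 subunits (73.0%) and 8 of 14 assembly factors (57.1%), a difference of 15.8 points (−10.9 to 43.0). At p 1e-10 the difference was 2.32 points (−24.4 to 30.7). Among the 5000 the order turned, with 14 subunits (37.8%) and 7 of 14 assembly factors, a difference of −12.2 points (−39.1 to 16.1). Among the 1000 the difference was −5.21 points (−32.7 to 15.2). All of these intervals except that at a q-value of 0.05 held 0 and were too wide to show that the shares were alike. With each peak given to the nearest protein-coding start, the difference was 35.5 points (6.45 to 59.3) at a q-value of 0.05 and 26.4 points (−3.71 to 50.2) at p 1e-05. It was then 15.6 points (−14.2 to 40.3) at p 1e-10. Among the 5000 it was 3.86 points (−25.2 to 27.2), with 12 of 37 subunits and 4 of 14 assembly factors. The turned order among the 5000 thus depended on how peaks were assigned. The medians were 19 fragments for subunits and 27.5 for assembly factors.

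**Figure D2:**
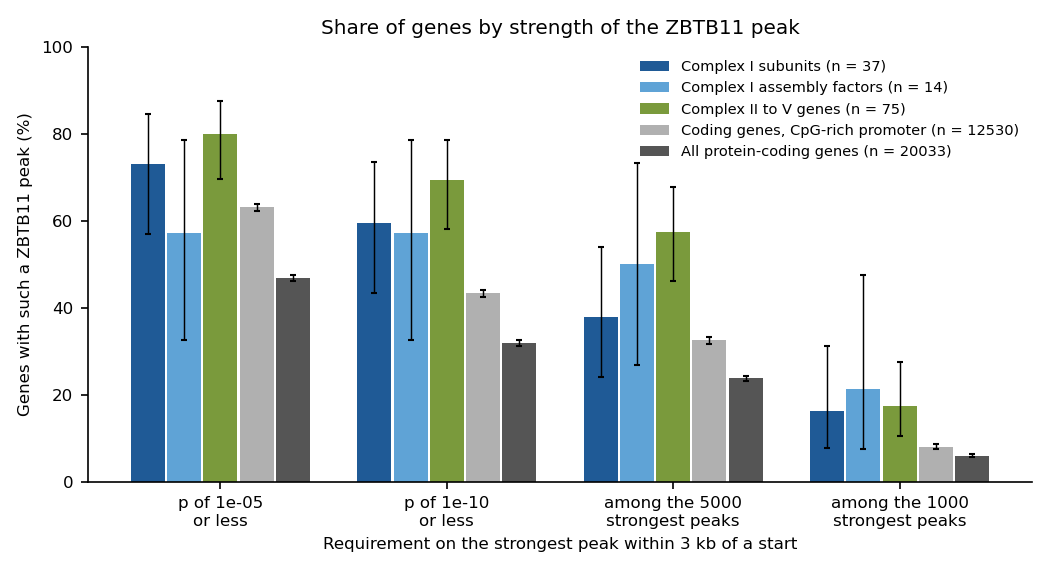
Share of genes (y axis, percent, with Wilson 95% intervals) whose strongest ZBTB11 peak met each of 4 requirements (x axis), for complex I subunits, complex I assembly factors, complex II to V genes, all protein-coding genes and those with a CpG-rich promoter. Complex I shares at p 1e-05 were 73.0% and 57.1%, on either side of the 63.1% of genes with a CpG-rich promoter.

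Most complex I genes have CpG-rich promoters, and over all genes such promoters had peaks more often. A promoter was called CpG-rich when the 250 bp on each side of its canonical start had at least 55% GC and at least 0.65 of the CpG dinucleotides that its base composition would give. This held for 47 of the 54 genes (87.0%) and for 62.5% of all protein-coding genes. Among CpG-rich promoters, 31 of 47 complex I genes (66.0%) and 63.1% of all genes had a peak of p 1e-05 or less, so at that threshold the share of the complex I genes was near the background. Without a CpG-rich promoter the shares were 6 of 7 complex I genes (85.7%) and 19.8% of all genes, and the 7 ran from NDUFB3, with 443 fragments, through NDUFB7, NDUFA9, NDUFC1, NDUFA4L2 and NDUFS4 to NDUFA4, with 8. Among these 7, NDUFA4 and NDUFA4L2 do not encode complex I subunits. The class is that of the canonical start, whereas the peaks of NDUFC1 and NDUFA4L2 lay over 3 kb from it, near another annotated start. The same held for some genes with a CpG-rich promoter, such as NDUFV3 and ECSIT. Among the 54 genes the share was lower with a CpG-rich promoter than without one, opposite to all genes. This order rests on 7 genes only, and on a class that need not describe the promoter at the peak. At stronger peaks the shares for CpG-rich promoters were further apart, at 57.4% against 43.3% for p 1e-10, 40.4% against 32.5% among the 5000 and 19.1% against 8.08% among the 1000. Median fragments for CpG-rich promoters were 20 and 14. The genes among the 1000 again include both NDUFC2 and NDUFC2-KCTD14, and FOXRED1 and NDUFV3. These shares do not separate genes with a neighbour on the other strand, which are given next. The part of promoter type in the counts above was not tested.

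Complex I genes often share a promoter region with a gene on the other strand. Another protein-coding gene started within 1 kb upstream in the opposite direction for 18 of the 54 (33.3%), against 9.46% of all protein-coding genes. Of these 18, 13 had a peak of p 1e-05 or less (72.2%), against 80.6% of all genes with such a neighbour. Of the other 36, 24 had one (66.7%), against 43.4%. With a CpG-rich promoter and no such neighbour, the share was 20 of 31 complex I genes (64.5%) against 60.1%. With a CpG-rich promoter and such a neighbour, it was 11 of 16 (68.8%) against 83.6%. The strongest peak was among the 5000 for 7 of these 16 (43.8%) against 53.3%, and among the 1000 for 3 (18.8%) against 16.3%. For the 31 without a neighbour these shares were 38.7% against 29.5% and 19.4% against 6.89%. Median fragments were 21.5 and 31 with a neighbour, and 19 and 13 without.

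The summits lay close to transcript starts. Of the 37 genes with a peak of p 1e-05 or less, 22 (59.5%) had the summit within 100 bp of an own start, against 45.6% of all genes with such a peak, and the median distances were 71 and 120 bp. At NDUFS7 the summit was 37 bp upstream, at NDUFS3 26 bp upstream, at NDUFC2 42 bp upstream, at NDUFB3 71 bp upstream and at NDUFAF1 6 bp downstream of the nearest own start. NDUFA13 and NDUFB9 had theirs 1 bp away and NDUFA12 7 bp away, while TIMMDC1 had its summit 159 bp upstream. The peaks were a median of 844 bp wide and at least 446 bp. By annotation, 25 of the 37 summits lay upstream of their gene, 3 in a 5′ UTR, 3 in a coding exon, 5 in an intron and 1 downstream. The NDUFAF4 summit was 823 bp upstream of its nearest start.

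For 13 of the 53 genes with a peak, another protein-coding start was nearer to the summit than any of their own. The same held for 10 of the 37 at p 1e-05 or less, so that 27 (73.0%) had their own start nearest, against 82.2% of all genes with such a peak. The 27 were 22 of 27 subunits but 3 of 8 assembly factors, namely NDUFAF1, TIMMDC1 and NDUFAF4, with both remaining in the group outside complex I. A peak within 3 kb of a gene can thus belong to a neighbour, and with peaks this wide both starts were often covered, as for 19 of the 37. These 19 include NDUFS3, whose peak also covers the start of KBTBD4, NDUFB3 with HYCC2 and NDUFB9 with TATDN1.

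The neighbours were specific genes. The FOXRED1 summit was 19 bp from the start of SRPRA and 61 bp from that of FOXRED1. The NDUFS1 summit was 2 bp from EEF1B2 and 100 bp from NDUFS1, and the NDUFA1 summit 33 bp from RNF113A and 66 bp from NDUFA1. At these 3 genes both starts lay under or beside 1 peak, and the peak cannot be given to either gene.

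In other cases a separate peak was nearest to the complex I gene itself. The strongest NDUFV3 peak was 113 bp from WDR4 and 482 bp from an alternative NDUFV3 start, whereas the peak at NDUFV3 proper had 34 fragments at rank 3360, 325 bp from the canonical start. The strongest NDUFAF3 peak was 65 bp from DALRD3, and the one at NDUFAF3 proper had 76 fragments at rank 2410, 127 bp from the canonical start. ECSIT went from 28 fragments, beside ZNF653, to 5, and NDUFAF7 from 31, beside CEBPZ, to 7. When every peak was given to the gene with the nearest start, 30 of the 54 genes had a peak of p 1e-05 or less, against 39.4% of all protein-coding genes.

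**Figure D3:**
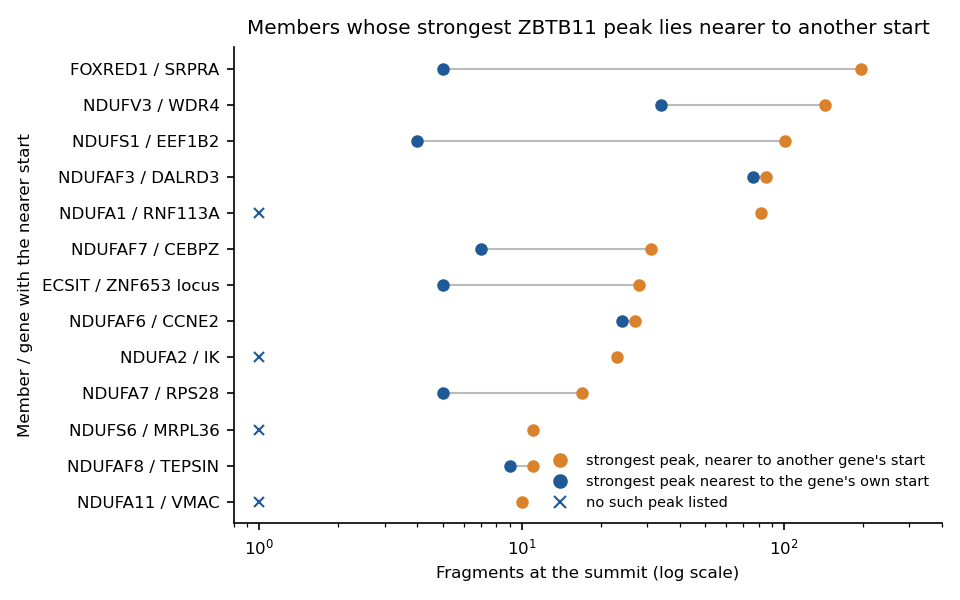
Fragments at the summit (x axis, log scale) for the 13 genes whose strongest ZBTB11 peak lay nearer to another protein-coding start, with the gene of that start after the slash. Orange points are the strongest peak, blue points the strongest peak nearest to the gene's own start, and crosses at the left edge mark 4 genes with no such peak; NDUFV3 and NDUFAF3 kept 34 and 76 fragments.

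The consensus lay within 50 bp of the strongest summit in 12 of the 54 genes (22.2%), against 13.9% of all protein-coding genes. In 5 of the 12, NDUFV3, NDUFS1, NDUFA1, NDUFAF3 and ECSIT, that summit was nearer to another gene's start, and with peaks given to the nearest start the count was 7 (13.0%), against 11.9%. With canonical starts only it was 8. All 12 had a peak of p 1e-05 or less, which gave 12 of 37 (32.4%) against 25.2% of all genes with such a peak, and 10 of the 22 genes among the 5000 had it (45.5%) against 35.2%. Of the 16 genes with a weaker peak 0 had it, against 5.15% of all genes with a weaker peak. In windows of the same length 500 bp to either side of the 37 summits, 2 of 74 (2.70%) held it. Over all protein-coding genes with such a peak the share of these windows was 4.33%. The 12 genes held 12 CCGGAAG matches and 1 CAGGAAG match, the latter at NDUFA12, and NDUFS3 alone had 2.

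The shorter CGGAA was chosen because strong peaks without the consensus held it, so its counts at strong peaks of these genes are a description and no evidence of a relation to strength. It lay within 50 bp of the summit in 24 of the 54 genes, against 25.5% of all protein-coding genes. It was present in 23 of the 37 with a peak of p 1e-05 or less (62.2%, against 46.7%). Among the 5000 it was in 18 of the 22 genes (81.8%, against 63.1%). Of the 16 with a weaker peak, only NDUFA11 held it (6.25%, against 8.81%). In the windows 500 bp away it was found in 8 of 74 (10.8%, against 11.1%), so both of these last shares were near the background. Median fragments were 110 in the 12 genes with the consensus, 99 in the 13 genes with CGGAA only, and 10.5 in the 28 with neither, against 37, 26 and 8 over all protein-coding genes. NDUFB6, with 83 fragments, was the strongest peak with neither.

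**Figure D4:**
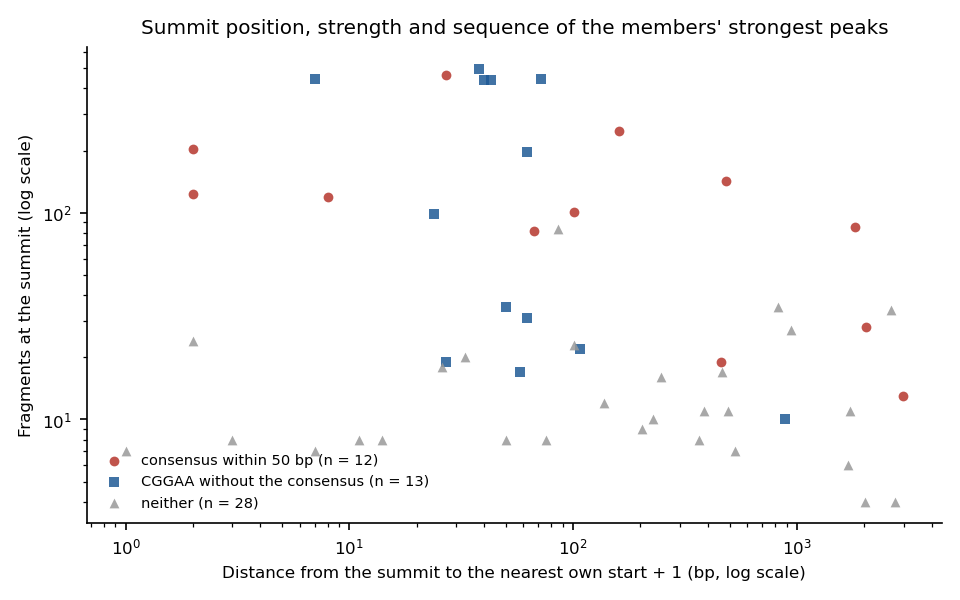
Fragments at the summit (y axis, log scale) against the distance from the summit to the nearest own start plus 1 bp (x axis, log scale) for the 53 genes with a peak, marked by the sequence within 50 bp of the summit. The 28 genes with neither sequence (grey) stay at or below 83 fragments, whereas 13 genes with the consensus (red) or CGGAA (blue) reach 100 or more.

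Read from the promoter rather than from the peak, the consensus was as frequent in these genes as in others. RefSeq promoters of hg38, from 250 bases before to 50 after the start, were matched for 45 of the 54 genes, and 12 of these (26.7%) held the consensus, against 25.3% of 15367 matched protein-coding genes and 21.8% of all 35116 promoters. Of the 12 complex I genes with it, 11 had a peak of p 1e-05 or less, with a median of 100 fragments, and of the 33 without it 18 did (54.5%), with a median of 11. Over all matched protein-coding genes the shares were 67.4% with and 42.9% without it, and the medians were 20 and 8 fragments. The exception among the 12 was NDUFB4, with 4 fragments at a summit 7342 bp from its canonical start. The 12 genes with the consensus in the promoter and the 12 with it at the summit have 7 in common, and NDUFAF1, NDUFAF4, NDUFB7, NDUFA2 and NDUFB4 had it in the promoter only.

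The IgG control could be read for 4 genes, those on chromosomes 1, 10 and 21, where its list has peaks. All 4 had an IgG peak within 3 kb, against 68.7% of the 3011 protein-coding genes there, and none of the IgG peaks had a q-value of 0.05 or less. Values are given for 3 of them. NDUFV3 had 143 ZBTB11 (121 to 168) and 6 IgG fragments (2.20 to 13.1), so the intervals lay apart. NDUFS5 had 19 (11.4 to 29.7) and 7 (2.81 to 14.4), and NDUFB8 had 11 (5.49 to 19.7) and 6 (2.20 to 13.1), so their intervals overlapped. In position, the ZBTB11 peak of NDUFS5 overlapped no IgG peak, so its 7 IgG fragments lay elsewhere within 3 kb. The ZBTB11 peak of NDUFV3, nearer to WDR4, overlapped an IgG peak of 5 fragments, and that of NDUFB8 overlapped one of 6. The ZBTB11 peak of NDUFS5, 455 bp from its start, had a fold of 6.53 over a background of 2.06 with a −log10 p of 12.9 at rank 6142, and that of NDUFB8, 384 bp upstream, had a fold of 4.57 over 1.63 with a −log10 p of 6.80 at rank 10564. On these chromosomes a peak of p 1e-05 or less was listed for 44.9% of protein-coding genes with ZBTB11 and 1.99% with IgG. For the other 50 genes no IgG value was used here.

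**Figure D5:**
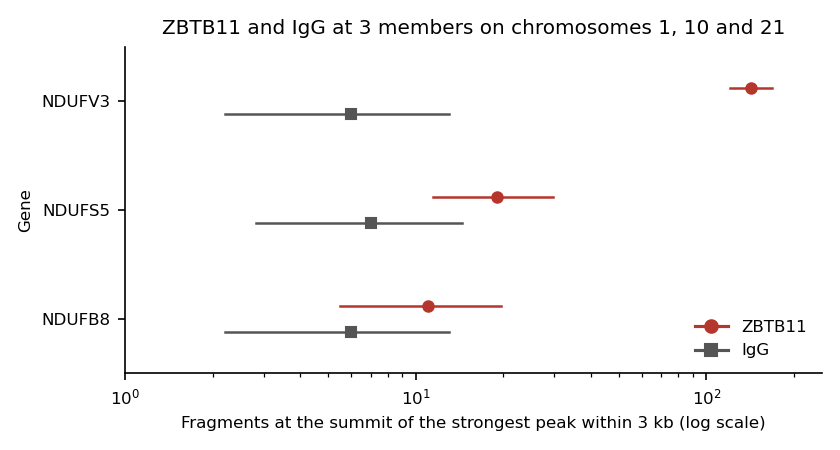
Fragments at the summit of the strongest ZBTB11 (red circles) and IgG (grey squares) peak within 3 kb (x axis, log scale) of 3 genes on chromosomes 1, 10 and 21, with exact Poisson 95% intervals as lines. The intervals are apart at NDUFV3 and overlap at NDUFS5 and NDUFB8. At NDUFS5 the ZBTB11 and IgG peaks do not overlap in position.

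The genes of the other respiratory complexes often had peaks too. Of 75 subunit and assembly genes of complexes II to V, 60 had a peak of p 1e-05 or less (80.0%, interval 69.6 to 87.5), against 46.9% of all protein-coding genes. For 43 (57.3%) it was among the 5000, against 23.8%, and the medians were 33 and 9 fragments. By complex, the 60 were 3 of 4 subunits of complex II, 5 of 9 of complex III, 10 of 10 of complex IV and 12 of 17 of complex V, and 30 of 35 assembly factors. The intervals for subunits of complexes II and III, 30.1 to 95.4% and 26.7 to 81.1%, held the 46.9%, and that of complex V, 46.9 to 86.7%, began at it. With peaks given to the nearest protein-coding start, 52 of the 75 had a peak of p 1e-05 or less, against 39.4%. The strongest peaks within 3 kb were those of the assembly factors SDHAF3 with 470 fragments, COX16 with 449 and TACO1 with 454. The interval of the 54 complex I genes at p 1e-05, 55.3 to 79.3%, overlapped that of these genes.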

How the data were processed

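The authors' sources give paired-end reads of formaldehyde-fixed cells, aligned to hg38 with BWA, and peaks called by MACS separately per antibody at p below 0.05. The release that wrote these files is not certain, and duplicate handling is not given in the sources used here. The deposited lists hold, per peak, a fold enrichment (a ratio over local background), a −log10 p-value, a −log10 q-value and a score equal to 10 times the −log10 p, truncated. Groups came from the sample titles.

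Whole fragments n and background b at each summit were solved from fold = (n + 1)/(b + 1) and a Poisson tail, and 100% of peaks were solved to within 0.001 in −log10 p. Backgrounds above the genome-wide level and under 5 were whole multiples of 0.0258 fragments (ZBTB11) or 0.0263 (IgG), within 0.05 of a step, in 100% of cases. Each of the 13 genes with at least 100 fragments had a background no lower than its own fragments times this step. Whether Input or the immunoprecipitated library supplied the background is not certain. If it was the latter, strong peaks raise their own background, and fold and −log10 p are relative to that library and not to Input. Fragments were therefore compared. A summit counted as nearest to an own start unless another protein-coding start was nearer by over 10 bp. Starts came from GENCODE release 44. Python 3.11.15, pandas 2.3.3, SciPy 1.17.1 and statsmodels 0.14.6 were used, and scripts were tested on simulated data.

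By the rule for named genes every gene could be named, and full values were fixed for the 12 genes of smallest p, genes on chromosomes 1, 10 and 21, genes without a peak, and those on either side of p 1e-05. Members and gene lists were chosen with earlier results of these data known. With 1 library per group, no p-value between groups is given, and Input was not analysed here. The values of 1 gene are not reported here, although it is included in the counts and medians.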

Additional observations from a re-analysis of the deposited data

How the results depend on the processing

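Across 8 counts, shares and medians there were 47 alternatives, of which 9 were chosen after seeing the data. Of the 47 values, 44 stayed within 1.5 times the main count or within its interval, and 0 reversed. Ranks were not among the alternatives for the difference between subunits and assembly factors. That difference was −12.2 percentage points among the 5000 and −5.21 among the 1000, opposite in sign to the main 15.8. Among the 5000 with nearest starts that difference was 3.86, with the same sign as the main value. Its main interval, −10.9 to 43.0, was wide, so staying within it says little. The exceptions to the 44 were 3. With a q-value of 0.05 or less, 0 of the 4 genes on chromosomes 1, 10 and 21 had an IgG peak. Genes with the consensus at the summit fell from 12 to 7 when each peak was given to the nearest protein-coding start, and became 24 with CGGAA in its place, which counts a shorter sequence. Genes with a peak of p 1e-05 or less were 35 with a window of 1 kb, 34 with canonical starts only and 30 with nearest starts, and the median fell from 19.5 to 12.5 fragments with nearest starts. The difference between subunits and assembly factors was 22.97 percentage points with a window of 1 kb and 23.2 at a q-value of 0.05. At that q-value, a threshold chosen for it after seeing the data, its interval did not hold 0. The median deposited fold enrichment was 5.80 in the complex I genes and 3.40 in all protein-coding genes. No paired analysis was possible because ZBTB11 and IgG have 1 library each. With 10 fragments or fewer, an interval spans several-fold, so weak peaks cannot be ordered.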

Other observations

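The complex I subunits encoded in the mitochondrial genome are outside the 54 genes. That genome held 4 peaks in each list, with 262 to 411 fragments at the summit for ZBTB11 and 361 to 483 for IgG, so the control was as high there.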
